A study of Mus musculus with 8 samples.

Results

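The genes described here separate 2 mouse mammary carcinoma lines with high expression of Vim, the gene for the intermediate filament vimentin, from 2 lines with low expression, whatever mouse model a line came from. A gene was taken when its normalised read count was higher in every library of the Vim-high lines pB3 and 687g than in every library of the Vim-low lines pB2 and Epcam hi, or lower in every one. Of 15890 genes tested, 2665 (16.8%) met this rule: 1352 (8.51%) were higher and 1313 (8.26%) were lower in the Vim-high lines. The members were thus chosen by the very CPM values reported here, which are counts scaled to library totals adjusted by TMM.

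RNA was sequenced from 8 libraries of 4 cell lines of the C57BL/6 strain, 2 libraries per line, from adherent monolayers in DMEM/F12 medium with 5% adult bovine serum. The Vim-low line pB2 and the Vim-high line pB3 came from tumours of MMTV-PyMT mice, in which the mouse mammary tumour virus promoter drives the polyoma middle T oncogene in mammary epithelium. The Vim-low line Epcam hi and the Vim-high line 687g came from MMTV-PyMT-Snail-IRES-YFP mice, a reporter model with the same oncogene, so the oncogene is common to all 4 lines. The 2 sides were named for their Vim level, since the labels class no line as epithelial or mesenchymal. The line, not the library, is the unit of the comparison. Each side holds 2 lines, the 4 lines can be divided 2 against 2 in 6 ways, and an exact two-sided permutation test over lines could not give a p below 0.333. The difference between the sides, and the fold changes of pB3 against pB2 and of 687g against Epcam hi from which it is built, are therefore given as descriptions with no test. The edgeR quasi-likelihood test was used only for contrasts other than that of the sides. These were Epcam hi against pB2, 687g against pB3, and the difference between the 2 pairs. They are not free of the rule: a gene whose lines differ widely within a side is kept only if the sides still do not overlap. The shares of separated genes called in these tests are thus shaped in part by the selection. The labels do not say that the libraries of a line came from separate cultures, so these p-values measure the spread between these libraries only.

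The epithelial-mesenchymal transition (EMT) is a change of state in which epithelial cells give up their junctions and apical-basal polarity and take on the shape, matrix production and motility of mesenchymal cells. Transcription factors of the Snail, Zeb and Twist families drive it, and the Snail and Zeb proteins repress epithelial genes such as the E-cadherin gene Cdh1 through E-box sequences in their promoters. In carcinomas the transition is often partial, with epithelial and mesenchymal genes expressed side by side.

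The promoter windows below are shown because the E-box, written CAGGTG or as its reverse complement CACCTG, is the sequence bound by the Snail and Zeb repressors, and because 4 of the printed genes are lower and 2 are higher in the Vim-high lines. Each is the 250 bases upstream of a RefSeq transcription start (GRCm38.p6), 5′ to 3′ on the strand of the gene, with each E-box in capitals. Epcam encodes an epithelial adhesion molecule (chr17:87635729-87635978, plus strand), Ap1m2 the epithelial subunit of a clathrin adaptor (chr9:21312334-21312583, minus strand), Ildr1 a protein of tricellular junctions (chr16:36693728-36693977, plus strand) and Tmem51 a transmembrane protein (chr4:142084305-142084554, minus strand). S100a4 encodes a calcium-binding protein of motile cells (chr3:90603520-90603769, plus strand) and Col5a1 a chain of type V collagen (chr2:27886175-27886424, plus strand).
Epcam: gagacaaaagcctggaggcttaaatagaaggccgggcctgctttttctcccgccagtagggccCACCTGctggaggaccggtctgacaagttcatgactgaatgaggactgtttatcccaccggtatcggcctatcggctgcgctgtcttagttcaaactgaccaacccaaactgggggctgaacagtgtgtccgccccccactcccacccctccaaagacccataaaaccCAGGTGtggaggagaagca
Ap1m2: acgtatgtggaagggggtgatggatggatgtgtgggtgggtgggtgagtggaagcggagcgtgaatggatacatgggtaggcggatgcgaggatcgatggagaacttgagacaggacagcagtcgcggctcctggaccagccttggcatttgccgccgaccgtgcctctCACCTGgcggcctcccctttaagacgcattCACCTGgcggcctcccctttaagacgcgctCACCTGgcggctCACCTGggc
Ildr1: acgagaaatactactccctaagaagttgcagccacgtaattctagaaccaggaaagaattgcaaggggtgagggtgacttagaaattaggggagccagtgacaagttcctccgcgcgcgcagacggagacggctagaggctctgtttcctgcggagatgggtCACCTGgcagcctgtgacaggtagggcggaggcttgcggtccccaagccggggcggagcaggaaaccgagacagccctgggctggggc
Tmem51: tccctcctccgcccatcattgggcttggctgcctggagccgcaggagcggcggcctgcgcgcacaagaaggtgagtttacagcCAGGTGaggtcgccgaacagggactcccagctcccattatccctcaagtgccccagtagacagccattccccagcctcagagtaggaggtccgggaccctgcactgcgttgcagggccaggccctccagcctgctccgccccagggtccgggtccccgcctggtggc
S100a4: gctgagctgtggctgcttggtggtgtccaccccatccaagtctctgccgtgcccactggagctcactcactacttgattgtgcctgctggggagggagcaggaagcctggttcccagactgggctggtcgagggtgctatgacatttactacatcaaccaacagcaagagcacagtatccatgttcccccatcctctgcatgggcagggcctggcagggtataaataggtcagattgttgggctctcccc
Col5a1: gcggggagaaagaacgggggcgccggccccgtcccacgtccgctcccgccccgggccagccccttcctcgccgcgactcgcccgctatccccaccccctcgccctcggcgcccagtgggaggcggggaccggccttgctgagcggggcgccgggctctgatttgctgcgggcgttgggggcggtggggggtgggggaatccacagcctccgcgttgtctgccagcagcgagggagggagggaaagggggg

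The Epcam window holds E-boxes that begin 187 and 19 bases before the start, and the Ap1m2 window holds 4, at 81, 51, 21 and 9 bases. Ildr1 has 1 at 88 bases and Tmem51 has 1 at 167 bases, while the windows of S100a4 and Col5a1 hold none. The printed windows were chosen after the search to show where the motif lies, and other genes go the other way: the window of the higher gene Kcnj12 holds an E-box at 240 bases, and that of the lower gene Myh14 holds none. The Kcnj12 window lies wholly inside the gene, far from its annotated start. The windows were searched on both strands for all genes that matched a RefSeq start, which were 10566 of the genes tested and 1978 of the 2665 separated genes. The RefSeq start nearest the annotated start of the gene was taken, at any distance, and can lie inside the gene. Of all windows, 15.1% held the E-box, and of those of genes that were not separated, 14.7%. Among genes lower in the Vim-high lines the share was 22.1% (221 of 999 windows), and among those whose sides lay at least 2-fold apart it was 34.2% (68 of 199). Among genes higher in the Vim-high lines the share was 12.1% (118 of 979), and 11.9% (28 of 236) with the sides at least 2-fold apart. Base composition was close in these groups, with a median GC content of 60% over all windows, 60.8% in the lower genes at least 2-fold apart and 59.2% in the higher ones. In windows at or under the median GC content the E-box was in 26.6% of the lower genes at least 2-fold apart, beside 14.3% of all, and in windows above it in 41%, beside 16.0%.

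A different E-box, CAGCTG, which reads the same on both strands, was in 11.3% of all windows, in 9.51% of the lower and in 12.2% of the higher genes. In the lower genes at least 2-fold apart its share was 7.04%, below that of all windows. The AP-1 motif TGANTCA was in 4.51% of all windows, 6.44% of the higher and 4.30% of the lower genes. With the sides at least 2-fold apart it was in 9.32% of the higher and 7.54% of the lower genes. The TEAD motif, written GGAATG or CATTCC, was in 10.8% of all windows, 11.3% of the higher and 12.3% of the lower genes. With the sides at least 2-fold apart it was in 14.0% of the higher and 18.1% of the lower genes. A match is a run of letters and not a measured binding site. Of the 12 lower genes with the largest gap between the sides, 8 had a window and 4 of these held the E-box, as did 1 of the 10 windows of the 12 higher genes with the largest gap. Among these windows, those of the higher genes Vim, Kcnj12, Aspa and Gsdme lay wholly inside the annotated gene. So did those of the lower genes Hsd11b1 and Il17re. The widest gap of all lower genes belonged to Ptprf, whose window held none.

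The libraries held 12442730 to 19149916 counts, so that 3 counts, the floor used for near-zero values, correspond to 0.159 to 0.222 CPM in a library. Replicates lay over 2-fold apart in 0.233% of genes in pB2, 0.340% in pB3, 2.25% in 687g and 8.16% in Epcam hi, the least even line. All 4 lines expressed the simple epithelial keratin genes: Krt8 had 104 and 94.3 CPM in pB2, 408 and 536 in Epcam hi, 473 and 486 in pB3 and 250.2 and 202 in 687g. Krt18 had 229 and 196 CPM in pB2, 3008 and 2644 in Epcam hi, 1881 and 2069 in pB3 and 1160.3 and 1069 in 687g. Krt8 and Krt18 were thus present on both sides, but other epithelial markers were not kept in all lines. Krt14, a basal keratin gene, had 223 and 186 CPM in pB2 and 2.74 and 2.35 in Epcam hi. It had 15 and 14.4 CPM in pB3 and 0.502 and 0.403 in 687g. The claudin gene Cldn4 had 20.4 and 13.2 CPM in pB2 and 1087 and 792 in Epcam hi. Its level was 122 and 126 CPM in pB3 and 2.29 and 1.075 in 687g. Among 13 leukocyte markers, Cd4, Cd8a and Ncr1 had 0 counts in every library, as had Cldn5 and Tie1 of 10 endothelial markers, Adipoq and Lep of 8 adipocyte markers, and Dpt of 14 fibroblast markers. The summed level of the fibroblast markers ran from 97.1 to 1292 CPM in the Vim-low libraries and from 551 to 2383 in the Vim-high libraries, and that of the leukocyte markers from 24.5 to 91 and from 17.5 to 1250. The upper end of the leukocyte sum is S100a8 in 687g, a gene that was low in pB3 (59.5 and 89.6 CPM in pB2, 7.88 and 9.96 in Epcam hi, 20.7 and 15.7 in pB3 and 813 and 1247 in 687g). The endothelial sum was 9.47 to 13.8 CPM in the Vim-low and 2.55 to 12 in the Vim-high libraries, and the adipocyte sum 0.352 to 4.40 and 0.941 to 42.3. Among the tested genes of these marker lists, only Smoc2 of the fibroblast list was separated, at 0.296 to 1.06 CPM in the Vim-low libraries and 1.23 to 787 in the Vim-high libraries. Smoc2 was thus not high in every Vim-high library. What part such cells have in the values below was not tested. In bulk RNA, fewer cells of a type and less RNA per cell cannot be told apart.

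Separation was mostly narrow. The gap of a gene, its lowest CPM on the higher side over its highest CPM on the lower side with the floor of 3 counts applied, had a median of 1.27-fold in the higher and 1.22-fold in the lower genes, and 42.2% and 46.3% of them had a gap under 1.2-fold. At least 2-fold apart were 308 higher and 266 lower genes, at least 10-fold 62 and 21, and at least 50-fold 11 and 1. At the edge of the rule, Nf1, the neurofibromin gene, was just inside with a lowest Vim-high value of 42.752 CPM against a highest Vim-low value of 42.750. Ect2, a factor of cell division, was inside in the other direction at 182.80 against 182.83 CPM, as were Senp1 (lower) and Pogz (higher) with gaps as small. Dnaja3, Slc33a1, Fam192a and Jpt1 were just outside. The median difference between the sides, as the mean of line means of log2(CPM + 0.5), was 1.19 for the higher and -0.9999 for the lower genes, and -0.03 for all genes tested. The scaling bears on the small gaps: TMM factors were 0.926 to 0.971 in the Vim-high and 0.988 to 1.12 in the Vim-low libraries, and with total counts alone 1001 genes were higher and 1846 lower, so that 35.2% of the separated genes were higher in place of 50.7%. All 308 and 266 genes at least 2-fold apart were separated with TMM, with DESeq2 size factors and with total counts.

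**Figure D1:**
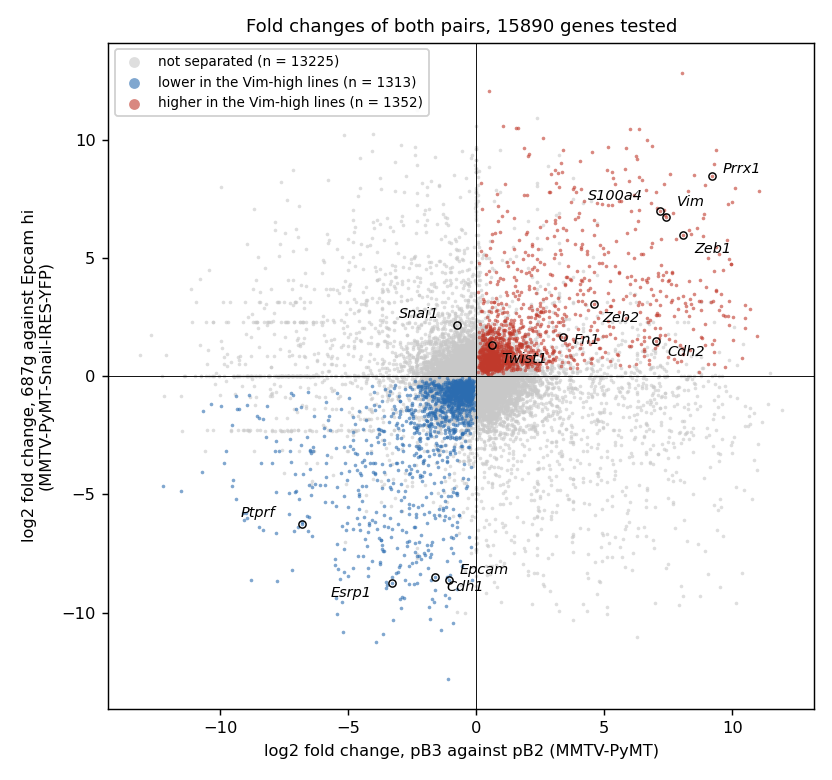
Log2 fold change of 687g against Epcam hi (vertical axis) plotted against that of pB3 against pB2 (horizontal axis) for the 15890 genes tested, each point a gene. The 1352 higher genes fill the upper right and the 1313 lower genes the lower left by the rule that chose them. Their medians in pB3 against pB2 were 1.30 and -1.11, and in 687g against Epcam hi 1.22 and -1.21. Vim, Prrx1, Zeb1 and S100a4 lie far out in both pairs.

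Few genes were near silent on 1 side and well expressed on the other: 21 had at least 10 CPM in all Vim-high libraries and at most 1 CPM in all Vim-low ones, and 2 genes, Slc44a3 and Ildr1, had the opposite pattern. The 21 include the transcription factor gene Prrx1, the matrix genes Col5a1 and Aebp1, the lactate transporter gene Slc16a3, the pyroptosis effector gene Gsdme, the chondroitin sulfotransferase gene Chst11 and the complement pathway protease gene Masp1.

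Genes of EMT transcription factors were higher in the Vim-high lines where they were separated. Of 24 tested, 9 were higher (37.5%, beside 8.51% of all genes), 0 were lower and 15 were not separated, with a median difference of 0.98. With total counts alone, 8 were higher and 1 was lower. Prrx1, a homeobox factor of mesenchyme (GRCm38, chromosome 1, 163245119 to 163313710), had 0.0741 and 0.159 CPM in pB2, 0.281 and 0.602 in Epcam hi, 77.5 and 77.9 in pB3 and 167 and 158 in 687g. Zeb1, a zinc finger repressor of epithelial genes, had 0.148 and 0.0530 CPM in pB2, 0.352 and 1.04 in Epcam hi, 27.1 and 28 in pB3 and 49.6 and 41.5 in 687g. Both were close to silent in each Vim-low line and clearly expressed in each Vim-high library, with gaps of 129-fold and 26.1-fold. Zeb2, a relative of Zeb1, had 1.48 and 1.64 CPM in pB2, 3.59 and 3.34 in Epcam hi, 39.5 and 36.3 in pB3 and 32.5 and 24.3 in 687g. The basic helix-loop-helix factor Twist2 had 1.41 and 1.06 CPM in pB2, 0 and 0.219 in Epcam hi, 18 and 18.7 in pB3 and 29.1 and 28 in 687g. Twist1, a relative of Twist2, had 17.8 CPM in both libraries of pB2, 16.5 and 16 in Epcam hi, 27.1 and 27.3 in pB3 and 44.3 and 36.9 in 687g. Twist2 separated by a gap of 12.8-fold and Zeb2 by 6.78-fold, whereas Twist1 was expressed in all 8 libraries and its sides lay 1.52-fold apart. The remaining higher members were the forkhead genes Foxf2 and Foxc2 and the E-protein genes Tcf4 and Tcf3, and Foxc2 and Tcf3 had gaps of 1.11-fold and 1.05-fold.

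The Snail family was not part of the set. Snai1, which encodes Snail, had 14.7 and 17.9 CPM in pB2, 5.35 and 3.72 in Epcam hi, 8.40 and 10.8 in pB3 and 25.8 and 14.7 in 687g. Snai2, which encodes Slug, had 0.444 and 0.477 CPM in pB2, 2.18 and 1.70 in Epcam hi, 2.55 and 2.72 in pB3 and 0.837 and 1.41 in 687g. The sides overlapped for both: Snai1 was highest in a 687g library but as high in pB2 as in the other, and Snai2 was lowest in pB2 and higher in Epcam hi than in 687g. Snai1 had a log2 fold change of 2.17 ± 0.30 for 687g against Epcam hi and of -0.77 ± 0.29 for pB3 against pB2, opposite in sign, and edgeR called the difference between the pairs (2.94 ± 0.42, adjusted p = 7.65e-05, n = 2 libraries per line).

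Of 28 mesenchymal cytoskeleton and adhesion genes, 9 were higher (32.1%), 1 was lower and 18 were not separated, with a median difference of 1.36 beside -0.03 for all genes. The 9 include Vim, whose separation was fixed by the naming of the sides. Vim itself (GRCm38, chromosome 2, 13573927 to 13582826), by which the sides were named, had 13.8 and 14.1 CPM in pB2, 21.3 and 32.5 in Epcam hi, 2309.9 and 2432 in pB3 and 3388 and 2335 in 687g. S100a4, also known as fibroblast-specific protein, had 5.78 and 6.05 CPM in pB2, 7.39 and 4.93 in Epcam hi, 898 and 821 in pB3 and 725 and 839 in 687g. The sides of these genes lay 71.2-fold and 98.2-fold apart, among the widest of the set. Wnt5a, a ligand of non-canonical Wnt signalling, had 0.148 and 0 CPM in pB2, 0.633 and 1.04 in Epcam hi, 44.2 and 47.8 in pB3 and 43.7 and 32 in 687g. The neural adhesion gene Ncam1 had 5.48 and 7.21 CPM in pB2, 0.492 and 0.930 in Epcam hi, 56.3 and 52.5 in pB3 and 88.5 and 55.1 in 687g. N-cadherin (Cdh2), which takes the place of E-cadherin in mesenchymal cells, had 0.370 and 0.530 CPM in pB2, 22.6 and 33.4 in Epcam hi, 60.1 and 62.9 in pB3 and 97.5 and 57.8 in 687g. Cdh2 was thus well expressed in Epcam hi, a Vim-low line, and its gap was 1.73-fold. The receptor tyrosine kinase gene Axl had 2.67 and 1.27 CPM in pB2, 399 and 323 in Epcam hi, 1108 and 1129 in pB3 and 1088 and 781 in 687g. The fibronectin receptor gene Itga5 had 8.89 and 9.18 CPM in pB2, 37.3 and 54.6 in Epcam hi, 99 and 103 in pB3 and 146 and 135 in 687g. Epcam hi lay between pB2 and the Vim-high lines for both. Tpm1 (tropomyosin) and Lgals1 (galectin) were abundant in all lines and separated by 1.24-fold and 1.22-fold. The 1 lower member was Ror1, a receptor for Wnt5a, between 4.44 and 14 CPM in the Vim-low libraries and between 0.837 and 1.55 in the Vim-high libraries.

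Fibronectin (Fn1), a matrix protein used widely as a mesenchymal marker, was not separated. It had 170.0 and 258 CPM in pB2, 2794 and 2953 in Epcam hi, 2259.9 and 2259 in pB3 and 12795 and 5216 in 687g. Epcam hi exceeded both pB3 libraries, so that the low level was that of pB2 alone. Of 22 fibrillar matrix and matricellular genes, 6 were higher (27.3%), 2 were lower (9.09%) and 14 were not separated, with a median difference of 1.86. Col5a1, which nucleates collagen fibrils, had 0.963 and 0.902 CPM in pB2, 0.985 and 0.766 in Epcam hi, 60.5 and 63.8 in pB3 and 129 and 89.6 in 687g. Spp1, which encodes the secreted integrin ligand osteopontin, had 360.3 and 371 CPM in pB2, 400.3 and 348 in Epcam hi, 5119 and 5393 in pB3 and 18663 and 17706 in 687g. Their gaps were 61.4-fold and 12.8-fold, and Spp1 was abundant in the Vim-low lines as well. The collagen-binding protein gene Sparc had 10 and 9.34 CPM in pB2, 192 and 72.8 in Epcam hi, 1221 and 1359 in pB3 and 893 and 713 in 687g. Loxl3, a lysyl oxidase that crosslinks collagen, had 0.741 and 0.849 CPM in pB2, 2.67 and 1.75 in Epcam hi, 154 and 168 in pB3 and 25.3 and 15.5 in 687g. Vcan and Postn, genes of matrix proteins of mesenchyme (versican and periostin), went the other way, Vcan between 9.20 and 29.4 CPM in the Vim-low libraries and between 0.391 and 1.41 in the Vim-high libraries and Postn between 1.34 and 3.41 CPM in the Vim-low libraries and between 0 and 0.279 in the Vim-high libraries. Among 16 genes of the basement membrane, 2 were higher and 1 was lower (median 0.95): the heparan sulfate proteoglycan gene Hspg2 was between 11.5 and 20.5 CPM in the Vim-low libraries and between 96.6 and 217 in the Vim-high libraries, and Lamb3, a laminin chain of epithelial anchorage, was between 92.8 and 489.9 CPM in the Vim-low libraries and between 22 and 59.9 in the Vim-high libraries.

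Matrix proteases and their inhibitors were higher where they were separated: 7 of 26 (26.9%), with 0 lower and a median difference of 1.59. DESeq2 size factors gave 7 higher and 1 lower, and total counts 6 and 2. The membrane-bound collagenase gene Mmp14 was between 62.1 and 87.8 CPM in the Vim-low libraries and between 108 and 319 in the Vim-high libraries. The metalloproteinase inhibitor gene Timp1 had 1.18 and 1.17 CPM in pB2, 113 and 102 in Epcam hi, 311 and 331 in pB3 and 967 and 1288 in 687g. Mmp19 had 0.296 and 0.265 CPM in pB2, 0.0703 and 0.274 in Epcam hi, 2.35 and 2.72 in pB3 and 17 and 10.3 in 687g. Timp1 was close to silent in pB2 only, whereas Mmp19 was low in both Vim-low lines, with gaps of 2.76-fold and 7.94-fold. The stromelysin gene Mmp3 had 0.0741 and 0.265 CPM in pB2, 28.9 and 24.2 in Epcam hi, 371 and 400.4 in pB3 and 53.1 and 119 in 687g, so its highest line was pB3 and its sides lay 1.84-fold apart.

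Among 32 growth factor receptors and ligands, 7 were higher (21.9%), 5 were lower (15.6%) and 20 were not separated, with a median difference of -0.34. Fgf2, a mitogen of mesenchymal cells, had 0.667 and 0.477 CPM in pB2, 1.13 and 0.985 in Epcam hi, 29.9 and 27.7 in pB3 and 199.6 and 155 in 687g. Igfbp4, which binds insulin-like growth factors outside the cell, had 31.7 and 30.9 CPM in pB2, 4.43 and 3.89 in Epcam hi, 2723 and 2844 in pB3 and 1476 and 1124 in 687g. These were the widest gaps of the list, 24.6-fold and 35.5-fold. The neuropilin gene Nrp1, the platelet-derived growth factor gene Pdgfc with the receptor gene Pdgfrb, the insulin-like growth factor receptor gene Igf1r and Igfbp3 were the other higher genes. The lower genes were the receptor genes Epha1 and Erbb3, the ligand genes Vegfc and Pdgfa, and Fgfbp1. Erbb3, a partner of the Erbb2 receptor in luminal cells, had 17.7 and 20.2 CPM in pB2, 51.6 and 50.1 in Epcam hi, 4.71 and 4.60 in pB3 and 0.335 and 0.202 in 687g.

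Of 23 genes of the TGF-beta family and its response, 5 were higher (21.7%), 1 was lower and 17 were not separated, with a median difference of 1.28, and 4 were higher with either other scaling. The receptor gene Tgfbr1 had 27.8 and 28.3 CPM in pB2, 36 and 45.8 in Epcam hi, 72.5 and 62.9 in pB3 and 133 and 91.1 in 687g, the latent TGF-beta binding protein gene Ltbp1 had 52.2 and 77.2 CPM in pB2, 70.7 in both libraries of Epcam hi, 218 and 216 in pB3 and 466 and 269 in 687g, and Id3, a target of BMP signalling, had 40.3 and 35.6 CPM in pB2, 58.2 and 52.7 in Epcam hi, 129 and 139.5 in pB3 and 468 and 449.6 in 687g. All 3 were expressed in every library, with gaps of 1.37-fold, 2.80-fold and 2.22-fold. The BMP antagonist gene Grem1 was between 0 and 3.89 CPM in the Vim-low libraries and between 7.73 and 35.5 in the Vim-high libraries. Bmp2, a BMP ligand, had 10.1 and 13.6 CPM in pB2, 1.13 and 1.53 in Epcam hi, 13.6 and 13.9 in pB3 and 364 and 410.2 in 687g, and pB2 and pB3 met at the edge of the rule, so its place in the set depended on the scaling. The 1 lower gene was Inhbb, an activin subunit, between 6.51 and 465 CPM in the Vim-low libraries and between 0.335 and 5.45 in the Vim-high libraries. Its level differed widely among the Vim-low libraries. Of 23 Wnt and Notch pathway genes, 2 were higher (8.70%) and 1 was lower (4.35%), close to the share of all genes. The lower one was the receptor gene Notch1, with 134 and 194 CPM in pB2, 35.5 and 36.2 in Epcam hi, 19.6 and 19.5 in pB3 and 1.17 and 1.28 in 687g.

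Of 27 genes of secreted immune factors and their surface partners, 8 were higher (29.6%), 2 were lower (7.41%) and 17 were not separated, with a median difference of 1.06. The chemokine gene Cxcl12 had 10.5 and 8.65 CPM in pB2, 6.05 and 6.02 in Epcam hi, 228 and 238 in pB3 and 142 and 115 in 687g. The cytokine gene Il11 had 0.889 and 0.690 CPM in pB2, 1.62 and 0.547 in Epcam hi, 14.7 and 14.5 in pB3 and 15.1 and 22.3 in 687g. Both were low in each Vim-low line, with gaps of 11-fold and 8.97-fold. Tslp, an alarmin of epithelia, had 0.667 and 0.212 CPM in pB2, 15.3 and 11.8 in Epcam hi, 391 and 361 in pB3 and 63 and 94.8 in 687g, and Il33, another alarmin, was between 0.0530 and 0.148 CPM in the Vim-low libraries and between 1.45 and 4.99 in the Vim-high libraries. Cd47, which signals to phagocytes against engulfment, had 94.4 and 96.1 CPM in pB2, 79.8 and 85.8 in Epcam hi, 303 and 287 in pB3 and 312 and 331 in 687g. Csf1, the growth factor of macrophages, was between 9.91 and 30.9 CPM in the Vim-low libraries and between 57.9 and 108 in the Vim-high libraries, and Il6 was between 0 and 0.422 CPM in the Vim-low libraries and between 0.518 and 263 in the Vim-high libraries. Il6 was thus not high in every Vim-high library. The 2 lower genes were the chemokine genes Cxcl16 and Ccl20.

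**Figure D2:**
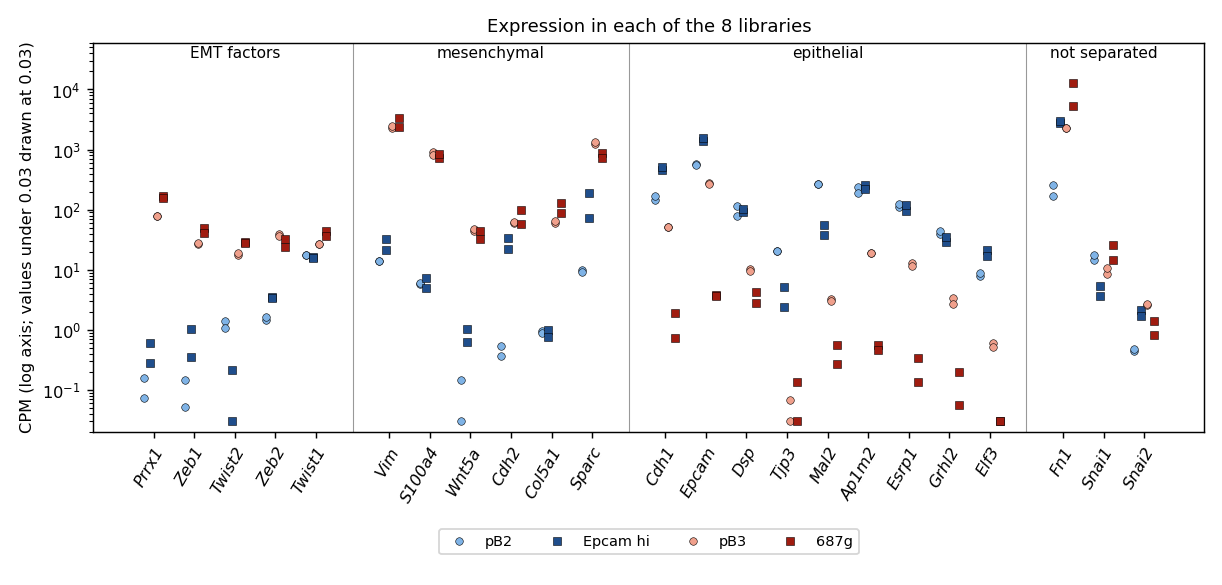
CPM on a log axis in each of the 8 libraries for 23 genes in 4 groups, with circles for the MMTV-PyMT lines, squares for the MMTV-PyMT-Snail-IRES-YFP lines, blue for Vim-low and red for Vim-high. In the separated genes every red mark lies above, or in the epithelial genes below, every blue mark, and Fn1, Snai1 and Snai2 show red and blue marks that overlap.

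Of the 12 higher genes with the widest gaps at 10 CPM or above, Prrx1, S100a4, Vim and Col5a1 are described above. Nrn1 and Cpq had the widest. Nrn1, which encodes the surface protein neuritin, had 0.148 and 0.0530 CPM in pB2, 0.281 and 0.0547 in Epcam hi, 65.5 and 68.9 in pB3 and 128 and 115 in 687g and a gap of 233-fold. Cpq, a secreted carboxypeptidase, had 0.0741 and 0.106 CPM in pB2, 0.492 and 0.383 in Epcam hi, 98 and 105 in pB3 and 69.6 and 75.5 in 687g and a gap of 141-fold. Add2, which encodes a subunit of the adducin of the membrane skeleton, had 0.296 and 0.106 CPM in pB2, 1.06 and 1.15 in Epcam hi, 92.6 and 99.8 in pB3 and 335 and 267 in 687g and a gap of 80.6-fold. Each of these was close to silent in both Vim-low lines and expressed in both Vim-high lines. The potassium channel gene Kcnj12, the glycosyltransferase gene Galnt15, the aspartoacylase gene Aspa, Gsdme and Aebp1 were also among the 12, each under 1 CPM in all Vim-low libraries and at 14.6 CPM or above in all Vim-high libraries.

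Genes of epithelial adhesion were lower in the Vim-high lines in 15 of 29 cases (51.7%, beside 8.26% of all genes), with 1 higher, 13 not separated and a median difference of -2.79. Total counts gave 16 lower. Cdh1, which encodes E-cadherin (GRCm38, chromosome 8, 106603351 to 106670246), had 144 and 167 CPM in pB2, 457 and 519.5 in Epcam hi, 51.8 and 51 in pB3 and 1.90 and 0.739 in 687g. Epcam (GRCm38, chromosome 17, 87635979 to 87651129) had 579 and 553 CPM in pB2, 1409.9 and 1537 in Epcam hi, 278 and 264 in pB3 and 3.85 and 3.70 in 687g. Both kept a clear level in pB3 and had little left in 687g, so that pB3 set the gaps of 2.77-fold and 1.99-fold. Dsp (desmoplakin), which links desmosomes to keratin, had 80.1 and 117 CPM in pB2, 92.9 and 101 in Epcam hi, 10.2 and 9.59 in pB3 and 4.30 and 2.75 in 687g. Tjp3, a scaffold of tight junctions, had 20.4 and 20.7 CPM in pB2, 5.28 and 2.41 in Epcam hi, 0.0672 and 0 in pB3 and 0 and 0.134 in 687g, which is 0 to 2 counts in each Vim-high library. The tight junction genes Cldn3, Cldn7, Ocln, Cgn, Marveld2, Marveld3 and Lsr, the cornified envelope and desmosome genes Evpl and Pkp3, the nectin gene Nectin4 and the integrin gene Itgb6 made up the others. The 1 higher member was Pkp1, a desmosomal plaque gene, with 0.370 and 0.690 CPM in pB2, 18.4 and 23.8 in Epcam hi, 43.8 and 46 in pB3 and 228 and 108 in 687g.

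Of 21 genes of epithelial polarity and trafficking, 13 were lower (61.9%), 1 was higher and 7 were not separated, with a median difference of -2.68. Ap1m2, which sorts cargo to the basolateral membrane, had 234 and 192 CPM in pB2, 256 and 219 in Epcam hi, 18.9 in both libraries of pB3 and 0.558 and 0.470 in 687g. Mal2, of apical transport, had 263 and 267 CPM in pB2, 37.6 and 55.9 in Epcam hi, 3.23 and 3.04 in pB3 and 0.558 and 0.269 in 687g. Prss8, a membrane serine protease that St14 activates, had 19.9 and 19 CPM in pB2, 25.6 and 20.9 in Epcam hi, 1.28 and 1.62 in pB3 and 0.112 and 0.0672 in 687g. St14 had 165 and 155 CPM in pB2, 204 and 208 in Epcam hi, 26.4 and 25.8 in pB3 and 0.335 and 0.605 in 687g. The 4 genes had gaps of 10.2-fold, 11.7-fold, 11.8-fold and 5.90-fold, and all were lower in 687g than in pB3. The inhibitors of these proteases, Spint1 and Spint2, were lower as well, as were the polarity genes Crb3, Patj and Llgl2 and the recycling genes Rab25 and Myo5b. Marveld1, a relative of the junction genes of that name, was the higher member, between 0.743 and 4.36 CPM in the Vim-low libraries and between 27.3 and 30.6 in the Vim-high libraries.

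Of 19 epithelial regulators of transcription and splicing, 10 were lower (52.6%), 2 were higher and 7 were not separated, with a median difference of -2.07. Grhl2, a grainyhead factor that maintains epithelial junction genes, had 38.8 and 44.6 CPM in pB2, 29.1 and 35.3 in Epcam hi, 3.36 and 2.72 in pB3 and 0.0558 and 0.202 in 687g. Esrp1, which sets the epithelial pattern of alternative splicing, had 111 and 125 CPM in pB2, 96.8 and 119 in Epcam hi, 12.8 and 11.6 in pB3 and 0.335 and 0.134 in 687g. Their gaps were 8.66-fold and 7.54-fold, set by pB3, where both were still detected. The Ets factor genes Elf3 and Ehf, Ovol2, a repressor of Zeb1, and Esrp2 were lower too: Elf3 had 8 and 8.91 CPM in pB2, 21 and 17.3 in Epcam hi, 0.605 and 0.518 in pB3 and 0 in both libraries of 687g, with 0 counts in both 687g libraries. Ehf had 67.2 and 84.5 CPM in pB2, 2.88 and 2.41 in Epcam hi, 0.269 and 0 in pB3 and 0 and 0.0672 in 687g, so it was high in pB2 alone and low in Epcam hi. Tfap2c, a luminal transcription factor, showed this still more sharply: it had 180.3 and 166 CPM in pB2, 0.563 and 0.493 in Epcam hi, 0.269 and 0.0648 in pB3 and 0.223 and 0.202 in 687g, and was in the set by a gap of 1.83-fold. Gata3, a luminal factor of the same list, was higher in the Vim-high lines, with 3.93 and 5.20 CPM in pB2, 11.8 and 13.7 in Epcam hi, 37.4 and 37.2 in pB3 and 59.5 and 36.9 in 687g, and Klf4 was higher by a gap of 1.04-fold.

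Lists of mammary cell type genes were short. Of 18 luminal and secretory genes, 3 were lower (16.7%, beside 8.26% of all genes) and 1 was higher (5.56%, beside 8.51%), with a median of -0.06. Of 10 basal and myoepithelial genes tested none was separated. Whether such small counts depart from the shares of all genes was not tested. Sox9, a progenitor factor, was between 87.5 and 131 CPM in the Vim-low libraries and between 33.4 and 63.2 in the Vim-high libraries, and Kit was between 0.0703 and 28.8 CPM in the Vim-low libraries and between 0 and 0.0672 in the Vim-high libraries, high in pB2 alone. Of 19 MHC class I pathway genes, 6 were lower (31.6%, beside 8.26% of all genes), 0 were higher and 13 were not separated, with a median of -0.64. The peptide transporter gene Tap1 had 6.59 and 7.21 CPM in pB2, 23.6 and 10 in Epcam hi, 1.61 and 1.43 in pB3 and 1.34 and 0.336 in 687g. The immunoproteasome subunit gene Psmb9 had 4.96 and 3.24 CPM in pB2, 6.68 and 1.31 in Epcam hi, 0.807 and 0.518 in pB3 and 0.167 and 0.269 in 687g. The other 4 were Tapbpl, a peptide editor, and the Qa genes H2-Q4, H2-Q6 and H2-Q7, whose reads can be shared among near-identical copies, so that their values are uncertain. All 6 were low or modest in abundance, and the smallest gaps were those of H2-Q4 (1.10-fold) and Tapbpl (1.23-fold).

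The lists of other programmes are set beside the shares of all genes tested, 8.51% higher and 8.26% lower. Those of cell cycle genes and of glycolysis and hypoxia genes lay near these shares. Of 22 interferon-stimulated genes 1 was higher (Parp14) and none lower, and of 21 cholesterol synthesis genes none was separated. Of 29 cell cycle genes, 2 were higher (6.90%) and 3 were lower (10.3%), with a median of -0.37. Ccnd2, a D-type cyclin, had 0.222 and 0.106 CPM in pB2, 16.4 and 12.3 in Epcam hi, 104 and 101 in pB3 and 48.2 and 34.9 in 687g, and Ccne1, an E-type cyclin, had 68.5 and 56.1 CPM in pB2, 62.3 and 70.7 in Epcam hi, 33.3 and 36.1 in pB3 and 12 and 14.7 in 687g. Of 25 glycolysis and hypoxia genes, 2 were higher (8%) and 1 was lower (4%). The lower gene was Car9, a carbonic anhydrase, with 54.4 and 54.7 CPM in pB2, 119.6 and 157 in Epcam hi, 10.1 and 10.8 in pB3 and 1.67 and 1.61 in 687g, while Hif1a was higher by a gap of 1.14-fold.

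**Figure D3:**
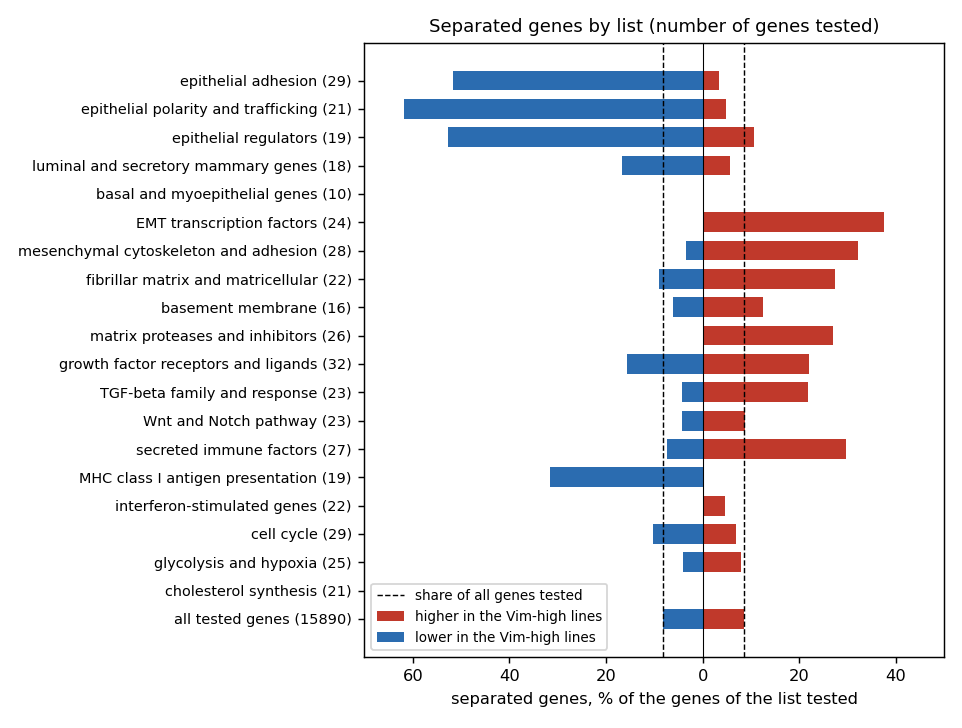
Share of the tested genes of each list that was separated, in percent, to the right for genes higher and to the left for genes lower in the Vim-high lines, with the number of genes tested in brackets and dashed lines at the share of all 15890 genes. The epithelial adhesion, polarity and regulator lists reach 51.7% to 61.9% on the left, and the EMT transcription factor list reaches 37.5% on the right.

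The widest gap among the lower genes was that of Ptprf. Ptprf, a receptor phosphatase of cell contacts, had 203 and 267 CPM in pB2, 147 and 130.3 in Epcam hi, 2.15 and 2.01 in pB3 and 2.29 and 1.28 in 687g and a gap of 56.9-fold. It was as low in pB3 as in 687g, unlike Cdh1 and Epcam. Ildr1 had 27.7 and 30.8 CPM in pB2, 26.3 and 24.7 in Epcam hi, 0.740 and 0.518 in pB3 and 0.112 and 0.0672 in 687g, and Slc44a3, a choline transporter-like protein, had 79.8 and 76.6 CPM in pB2, 17.9 and 14.2 in Epcam hi, 0.672 and 0.583 in pB3 and 0.167 and 0.202 in 687g, with gaps of 33.4-fold and 21.1-fold. Also among the 12 widest were the gaps of Mtmr7, a lipid phosphatase, at 13.2-fold, Hsd11b1, which activates glucocorticoids, at 11.4-fold, the interleukin receptor gene Il17re at 11-fold, the non-muscle myosin gene Myh14 at 10.9-fold, and Tmem51 at 9.28-fold.

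Whether the separated genes differed further between the 2 Vim-high lines was tested with 687g against pB3. The rule did not choose genes by this contrast, but the selection shapes in part the shares called. Of the 1313 lower genes, 300 (22.8%) were lower still in 687g and 34 (2.59%) were higher, beside 12.9% and 12.8% of all genes (25.8% either way). Of the 1352 higher genes, 318 (23.5%) were higher still in 687g and 105 (7.77%) were lower. In the lower genes at least 2-fold apart, 122 of 266 (45.9%) were lower and 5 (1.88%) were higher in 687g, with a median log2 fold change of -1.72, beside a median of -0.0036 for all genes. In the higher genes at least 2-fold apart, 119 of 308 (38.6%) were higher and 37 (12%) were lower, with a median of 0.44. Calls of this contrast depended on the libraries: of the separated genes, 757 were called with all of them. Fewer were called without any library of pB3 or 687g, and fewest without a pB3 library. Without a library of a line outside the contrast, more (Epcam hi) or fewer (pB2) were called.

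Epithelial genes were among those lower still in 687g. Of the 15 lower adhesion genes 14 were lower in 687g than in pB3, of the 13 lower polarity genes 10, and of the 10 lower regulators 6, with none higher. Of all 1313 lower genes 22.8% were lower and 2.59% higher in 687g, beside 12.9% and 12.8% of all genes tested. Cdh1 was lower in 687g by a log2 fold change of -5.24 ± 0.30, adjusted p = 2.90e-08, Epcam by -6.16 ± 0.22, adjusted p = 1.78e-09, Esrp1 by -5.61 ± 0.34, adjusted p = 4.67e-08 and Grhl2 by -4.55 ± 0.47, adjusted p = 6.72e-06 (n = 2 libraries per line). Among lower genes with at least 10 CPM in every Vim-low library, the largest differences were those of the polarity gene Crb3, which had 0 counts in 687g and was at least 65.3-fold lower there than in pB3 (with 3 counts over both 687g libraries as the floor), and of the tight junction gene Cgn and the microtubule linker gene Hook1. Cgn had 1 count in 687g and was 207-fold lower (counting interval 36.6 to 8205), and Hook1 had 2 counts and was 111-fold lower (30.5 to 926), both with 95% intervals for counting error only. Ptprf was not called between the Vim-high lines (-0.20 ± 0.32, adjusted p = 0.726).

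Of the 9 higher EMT transcription factors, 6 were higher in 687g than in pB3 and none was lower. Prrx1 differed by 1.06 ± 0.19, adjusted p = 7.25e-04 in edgeR. Zeb1 (0.73 ± 0.24, adjusted p = 0.0415) and Twist1 (0.58 ± 0.18, adjusted p = 0.0317) were called by small margins, and without single libraries their adjusted p reached 0.223 and 0.250. Zeb2 (-0.41 ± 0.20, adjusted p = 0.167) and Vim (0.27 ± 0.22, adjusted p = 0.440) were not called. Among mesenchymal genes 0 of 9 were higher and 1 was lower in 687g. Of all 1352 higher genes 23.5% were higher and 7.77% lower in 687g, beside 12.8% and 12.9% of all genes tested. Among higher genes with at least 10 CPM in every Vim-high library, the largest differences were those of Bmp2 (4.81 ± 0.22, adjusted p = 4.86e-09), of Ahr, the aryl hydrocarbon receptor gene (3.24 ± 0.27, adjusted p = 8.81e-07), and of Cd109, a co-receptor of TGF-beta (3.21 ± 0.26, adjusted p = 6.35e-07). Notum, an inhibitor of Wnt ligands below that level in pB3, had 0.0741 and 0.159 CPM in pB2, 0.141 and 0.0547 in Epcam hi, 0.471 and 0.324 in pB3 and 184 and 104 in 687g and differed by more (8.48 ± 0.39, adjusted p = 4.86e-09). Ahr had 3.93 and 4.93 CPM in pB2, 14.3 and 13.1 in Epcam hi, 20.4 and 17.3 in pB3 and 231 and 126 in 687g. Cd109 had 2.37 and 3.18 CPM in pB2, 4.92 and 5.25 in Epcam hi, 13.9 and 13.1 in pB3 and 159 and 91.8 in 687g, so both stood above the Vim-low lines in pB3 and far higher in 687g.

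Between the 2 Vim-low lines more genes differed: edgeR called 51.4% of all genes between Epcam hi and pB2, 25.8% as higher in Epcam hi and 25.6% as lower. Of the 1352 higher genes, 420 (31.1%) were higher in Epcam hi and 150 (11.1%) were lower, and of the 1313 lower genes 167 (12.7%) were higher and 338 (25.7%) were lower. Of the 15 lower adhesion genes 9 were higher in Epcam hi than in pB2 and 2 were lower. Cdh1 was higher by 1.65 ± 0.22, adjusted p = 3.11e-05 and Epcam by 1.38 ± 0.17, adjusted p = 1.06e-05. Esrp1 (-0.13 ± 0.19, adjusted p = 0.602) and Grhl2 (-0.37 ± 0.21, adjusted p = 0.159) were not called. Vim was higher in Epcam hi by 0.95 ± 0.24, adjusted p = 0.00491, and without Epcam hi replicate 2 that call ended (0.53, adjusted p = 0.0832). Of the 9 higher mesenchymal genes, 7 were higher in Epcam hi than in pB2 and 1 was lower. Cdh2 was among the 7, by 5.90 ± 0.39, adjusted p = 2.50e-08.

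Some separated genes were near silent in pB2 and partly expressed in Epcam hi. The pirin gene Pir, an iron-binding transcriptional cofactor, had 0.0741 and 0 CPM in pB2, 24 and 15.4 in Epcam hi, 37.1 and 35 in pB3 and 70.3 and 104 in 687g. The magnesium transporter gene Nipal1 had 0.222 and 0.0530 CPM in pB2, 56.5 and 59.1 in Epcam hi, 76.8 and 88.6 in pB3 and 65.2 and 98.3 in 687g. Prelid2 had 0 CPM in both libraries of pB2, 2.74 and 5.69 in Epcam hi, 11.2 and 11.7 in pB3 and 19.9 and 27.7 in 687g, and was at least 47.5-fold higher in Epcam hi than in pB2. Pir was 621-fold higher (counting interval 111 to 24549) from 1 count, and Nipal1 was higher by 8.77 ± 0.41, adjusted p = 9.85e-10. The opposite was seen for Cplx2 (complexin), Heg1, a transmembrane protein of cell junctions, and Bend5. Cplx2 had 10.6 and 14.3 CPM in pB2, 0 in both libraries of Epcam hi, 19 and 16.8 in pB3 and 28.9 and 37.8 in 687g, and was at least 138-fold lower in Epcam hi than in pB2. Heg1 had 11.1 and 16.9 CPM in pB2, 0.141 and 0.219 in Epcam hi, 57.8 and 58.7 in pB3 and 157 and 97.9 in 687g and differed by -6.20 ± 0.44, adjusted p = 5.94e-08, and Bend5 was 65.3-fold lower (counting interval 11.3 to 2617) from 1 count in Epcam hi.

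**Figure D4:**
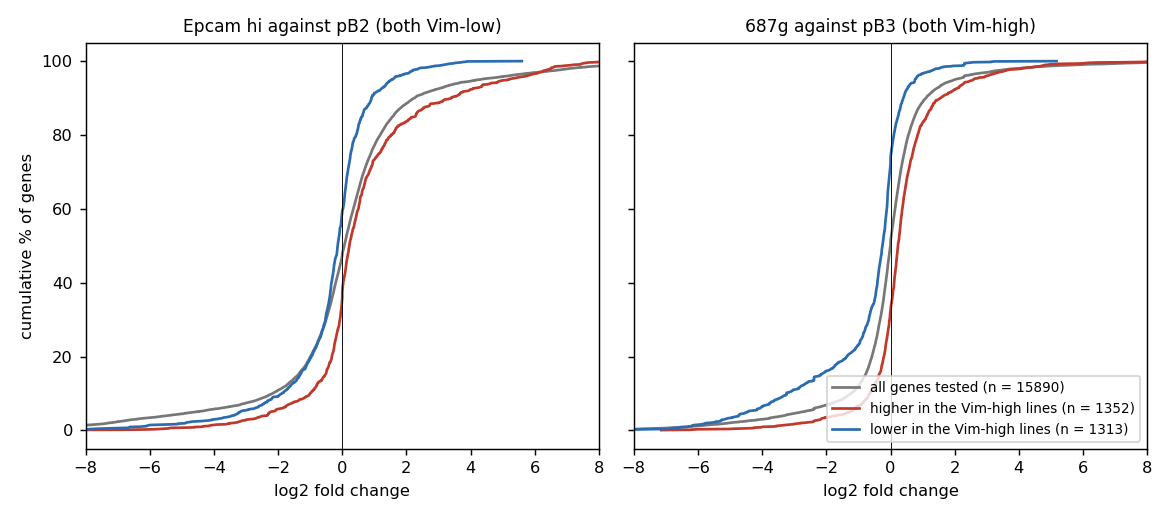
Cumulative percentage of genes against the log2 fold change of Epcam hi against pB2 (left) and of 687g against pB3 (right), for all 15890 genes tested (grey), the 1352 genes higher (red) and the 1313 genes lower (blue) in the Vim-high lines. In the right panel the blue curve has a long tail to the left, where 22.8% of the lower genes were called lower in 687g, and the red curve lies to the right of the grey one over most of its range.

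Whether a gene differed by the same amount in both pairs was tested as the difference between them, 687g against Epcam hi minus pB3 against pB2. It was called for 37.7% of all genes, 18.2% with a more positive value in the reporter model and 19.5% with a more negative one. Of the 1352 higher genes, 217 (16.1%) and 288 (21.3%) were called, and of the 1313 lower genes 134 (10.2%) and 263 (20%). Of the lower genes at least 2-fold apart, 113 of 266 (42.5%) had a more negative value in the reporter model and 17 (6.39%) a more positive one. Cdh1 is an example: it was lower by a log2 fold change of -8.49 ± 0.33 in 687g against Epcam hi and of -1.60 ± 0.23 in pB3 against pB2, and the pairs differed by -6.89 ± 0.38, adjusted p = 6.84e-09. Epcam differed by -7.54 ± 0.27, adjusted p = 2.04e-10, Esrp1 by -5.48 ± 0.41, adjusted p = 1.50e-07 and Grhl2 by -4.18 ± 0.54, adjusted p = 3.08e-05, with the larger difference in the same pair. In the tests within each side, all 4 were lower in 687g than in pB3, and Cdh1 and Epcam were also higher in Epcam hi than in pB2.

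Vim did not pass the test of this difference (-0.68 ± 0.33, adjusted p = 0.128), but passed it without Epcam hi replicate 1 (-0.95, adjusted p = 0.0219) and also without 687g replicate 1. It was not called without any other single library, with adjusted p up to 0.567. Not called either were S100a4 (-0.18 ± 0.30, adjusted p = 0.684) and Prrx1 (-0.77 ± 0.65, adjusted p = 0.413). Cdh2 had the larger difference in the MMTV-PyMT pair (-5.56 ± 0.47, adjusted p = 5.33e-07), as had Zeb2 (-1.55 ± 0.34, adjusted p = 0.00269). Zeb1 (-2.14 ± 0.78, adjusted p = 0.0442) and Twist1 (0.71 ± 0.26, adjusted p = 0.0467) lost this call without single libraries, with adjusted p up to 0.408 and 0.183.

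The separated genes were unevenly spread over the chromosomes. On chromosome 14, 15.7% of the genes tested were higher and 4.29% lower, with a median difference between the sides of 0.17, and on chromosome 19, 14.4% were higher and 3.04% lower, with a median of 0.19. Chromosome 6 had the opposite balance, 4.47% higher and 12% lower, with a median of -0.18. Chromosome 5 had the most negative median, -0.27, with 6.86% higher and 9.86% lower. Of 242 stretches of 10 Mb with at least 20 tested genes, 4 had over 20% of their genes higher and 2 had over 20% lower. Of these 4, 3 lie on chromosome 14, at 20 to 30 Mb with 27.1% higher (16 of 59), at 40 to 50 Mb with 22.2% and at 50 to 60 Mb with 22.3%, and 1 on chromosome 15 at 100 to 110 Mb with 21.1%. The 2 stretches with lower genes lie on chromosome 11 at 110 to 120 Mb, with 24.2% (29 of 120) and a median difference of -0.56, and on chromosome 6 at 90 to 100 Mb, with 20.9%. The most negative medians of all stretches were on chromosome 5, at -0.78 from 30 to 40 Mb (17.1% lower) and -0.66 from 140 to 150 Mb (10.3% lower). From 30 to 40 Mb the median log2 fold change was -1.58 in pB3 against pB2 and -0.03 in 687g against Epcam hi. In the chromosome 11 stretch the median log2 fold change was -1.15 in pB3 against pB2 and -0.20 in 687g against Epcam hi. In the chromosome 14 stretch from 20 to 30 Mb it was 0.19 and 0.81. Whether the lines differ in copy number there was not tested.

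**Figure D5:**
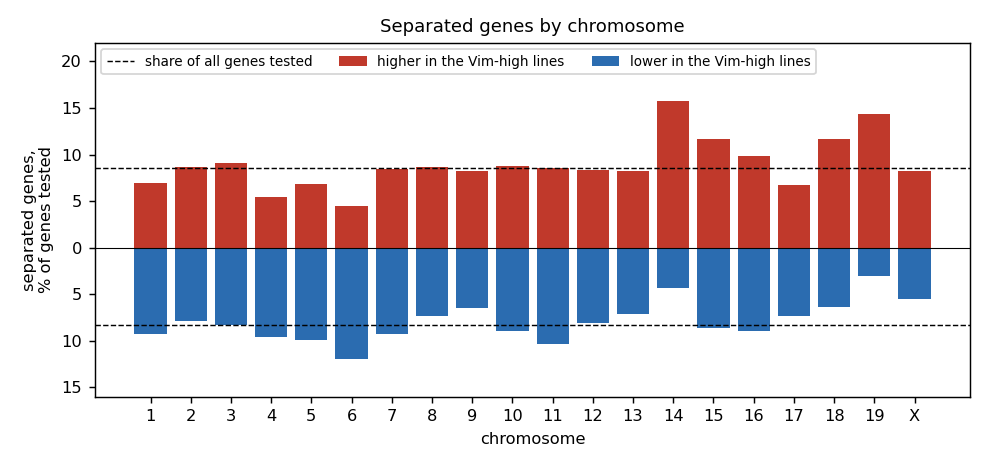
Share of the tested genes of each chromosome that was separated, in percent, upward for genes higher and downward for genes lower in the Vim-high lines, with dashed lines at the share of all 15890 genes. Chromosomes 14 and 19 have the tallest bars upward, 15.7% and 14.4%, and chromosome 6 the longest downward, 12%.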

How the data were processed

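The authors deposited raw read counts per gene, 1 file per library, as whole numbers for 53379 Ensembl genes. STAR 2.6.1a and featureCounts and the builds GRCm38 and mm10 are named in the submitters' processing notes, and the labels' protocols name a KAPA mRNA HyperPrep kit for library preparation. How reads shared by several genes were counted is not given in the sources used here. Symbols, places and lengths came from GENCODE M21 (GRCm38), promoter windows from RefSeq.

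Genes passing filterByExpr by line were kept. One edgeR 4.0.16 quasi-likelihood fit (R 4.3.3) held all 8 libraries with 1 coefficient per line. Genes were called at a Benjamini-Hochberg adjusted p under 0.05 over all genes tested, two-sided. Values after ± are approximate standard errors, the absolute log2 fold change over the square root of the F statistic of the test. For genes with 0 or few counts in a line they do not show how far the fold change could range. DESeq2 1.42.0, other scalings and filters and leaving out each library were alternatives. The code was tested on simulated data. Replicate numbers share no source in the labels. The deviations of same-numbered libraries of different lines had correlations of both signs, from -0.167 to 0.215. Whether libraries shared a batch was not tested.

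Of 533 symbols in 23 lists, 532 were found and 448 tested. Aldoa, with several IDs, was taken by the ID with more counts. The text names a panel of EMT genes, the 12 largest gaps in each direction at 10 CPM or above on the higher side, the 2 largest in each list, the 3 largest called differences each way in each test, and 8 genes at the edge of the rule. Other list members were named after their values were seen. The members and lists were chosen with earlier results of these data known.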

Additional observations from a re-analysis of the deposited data

Results flagged for a closer look

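Given here are the separated genes of the EMT panel and the 3 called members with the largest value each way (at least 10 CPM in every library of the higher side) for which the pairs of the 2 mouse models differed, 14 in all, by the edgeR test of 687g against Epcam hi minus pB3 against pB2, in log2 units. Of the genes higher in the Vim-high lines, Cplx2 (11.54 ± 0.72, adjusted p = 5.78e-08), Bmp2 (7.95 ± 0.33, adjusted p = 5.99e-10), Heg1 (7.33 ± 0.52, adjusted p = 8.45e-08) and Twist1 (0.71 ± 0.26, adjusted p = 0.0467) had the more positive value in the reporter model. Ube2ql1 (-9.32 ± 0.42, adjusted p = 1.06e-09), Mmp3 (-9.27 ± 0.61, adjusted p = 4.31e-08), Cdh2 (-5.56 ± 0.47, adjusted p = 5.33e-07), Zeb1 (-2.14 ± 0.78, adjusted p = 0.0442) and Zeb2 (-1.55 ± 0.34, adjusted p = 0.00269) had the more positive value in the MMTV-PyMT pair.

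The 5 epithelial genes among them had the more negative value in the reporter model: Crb3 (-11.70 ± 0.72, adjusted p = 4.76e-08), Epcam (-7.54 ± 0.27, adjusted p = 2.04e-10), Cdh1 (-6.89 ± 0.38, adjusted p = 6.84e-09), Esrp1 (-5.48 ± 0.41, adjusted p = 1.50e-07) and Grhl2 (-4.18 ± 0.54, adjusted p = 3.08e-05). Cplx2 had 0 counts in Epcam hi and Crb3 0 counts in 687g, so their fitted values and the values after ± depend on the prior count. The Vim-high and Vim-low lines of the MMTV-PyMT pair met at the edge of the rule for Bmp2. Ube2ql1 had 0.148 and 0.106 CPM in pB2, 16.5 and 21.3 in Epcam hi, 113 and 109 in pB3 and 27.5 and 22.4 in 687g, with a narrow gap in the reporter model.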

How the results depend on the processing

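The size of the set depended on how separation was defined. A gap of at least 1.5-fold left 455 higher and 431 lower genes and one of at least 2-fold 308 and 266, while separating only the means of the lines gave 2738 and 2818. Leaving out 1 library eases the rule, and gave 1522 to 2032 higher and 1471 to 1834 lower genes, with 2032 without Epcam hi replicate 2. Called members went from 1075 to between 746 and 1144 in Epcam hi against pB2, from 757 to between 474 (without pB3 replicate 1, and 479 without replicate 2) and 877 in 687g against pB3, and from 902 to between 705 and 906 in the difference between the pairs. Among genes at least 2-fold apart, 298, 283 and 283 were called. With a replicate block the calls were 1030, 743 and 873, and as the labels do not pair these libraries by number the block is a check only.

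The gap of Bmp2 on the log2 scale turned from 0.0017 to -0.0233 with DESeq2 size factors and -0.228 with total counts, and ranged from -0.0182 to 0.423 without single libraries. The gap of Ube2ql1 turned to -0.0222 with total counts. The adjusted p of Prrx1 in Epcam hi against pB2 rose from 0.0255 to 0.0533 with the DESeq2 Wald test. The cause was not tested. Counts near zero limit the depth: in 25 higher and 46 lower members the lowest CPM of the higher side was below the 3-count floor of a library on the other side.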

Other observations

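The 3 tested constant-region genes of T cell receptors were all higher in the Vim-high lines, beside 8.51% of all genes. The 1 tested variable-region gene of these receptors was not separated. Trac and Trdc are neighbours on chromosome 14, in the stretch from 50 to 60 Mb where 22.3% of the genes were higher. Trac had 0.0741 and 0 CPM in pB2, 0.492 and 0.547 in Epcam hi, 1.41 and 2.27 in pB3 and 2.85 and 4.03 in 687g, and Trdc had 0 CPM in both libraries of pB2, 0.352 and 0.109 in Epcam hi, 1.41 and 1.43 in pB3 and 3.01 and 4.43 in 687g. Trbc1 was between 0 and 0.141 CPM in the Vim-low libraries and between 0.614 and 2.02 in the Vim-high libraries. Cd4 and Cd8a had 0 counts in every library, Cd3e had 0 to 1 counts and the pan-leukocyte gene Ptprc 0 to 7.

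Of the protein-coding genes tested, 18.8% were separated, and of the processed pseudogenes 4.55%. In 27 higher and 28 lower members, all 4 libraries of the other side had 0 counts.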
